A study of Mus musculus with 16 samples.

Results

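A set of 4 rows in the gene count table of mouse bone marrow–derived macrophages (BMDMs) was followed across 16 libraries. They were *Slc7a2*, *Nos2* and *Acod1*, which encode effectors of arginine and itaconate metabolism, and *Gm26584*, a long noncoding RNA gene annotated on the strand opposite to *Slc7a2*. They were picked by name, 4 of 48440 rows in the table, and all 4 were found and passed the filter on low counts, so they were among the 3453 rows tested. *Slc7a2*, *Nos2* and *Acod1* passed that filter only through the M1-like groups, so a difference between M0 and M1-like cells was a condition of their being tested.

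The cells came from 8-week-old female NOD.hALOX12 mice. These are nonobese diabetic animals in which the human *ALOX12* gene takes the place of mouse *Alox15* under the mouse upstream regulatory region, and every group carried this replacement. Marrow cells were grown for 7 days with 10 ng/mL M-CSF and were then pretreated for 1 hour with DMSO alone at 0.1% (vehicle) or with VLX-1005 at 10 μM, an inhibitor of human 12-lipoxygenase. M1-like cells were next polarized over 18 hours by LPS (10 ng/mL) plus IFN-γ (25 ng/mL), with vehicle or VLX-1005 present during polarization, and M0 cells were left unpolarized. The series' design text also speaks of 4 weeks of treatment, which does not match these culture times, and the times given here are those of the study's methods. With both treatments in both states there were 4 groups of 4 libraries. No source used here says whether the 4 were separate animals or cultures, so every p-value is set against a spread among libraries that could be purely technical.

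Arginine is the substrate of inducible nitric oxide synthase, the product of *Nos2*, which activated mouse macrophages use to make nitric oxide and citrulline. *Slc7a2* encodes CAT2, a cationic amino acid transporter that brings arginine into the cell and is induced along with *Nos2* in activated macrophages. *Acod1* (also called *Irg1*) encodes the mitochondrial enzyme that turns cis-aconitate from the citrate cycle into itaconate, a metabolite that inhibits succinate dehydrogenase and modifies KEAP1.

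*Slc7a2* and *Gm26584* overlap on opposite strands of chromosome 8 of the mm10 build. *Slc7a2* spans 40862396 to 40922308 on the plus strand with 5 annotated transcripts and 9135 exonic bases, and *Gm26584*, annotated as a lincRNA, spans 40862395 to 40865647 on the minus strand. *Gm26584* has 2 exons separated by a gap of 37 bases, and 635 of its 3216 exonic bases (19.7%) are opposite to first exons of *Slc7a2* transcripts, while the other 2581 lie outside the annotated *Slc7a2* exons, in the same stretch as its first intron. The end of the first exon of the transcript Slc7a2-201 is therefore covered by *Gm26584*. The letters at that boundary are shown on both strands, since this is where bases that both rows claim give way to bases of *Gm26584* alone: chr8:40862543-40862572, with the 15 bases of the *Slc7a2* exon, shared by both rows, in capitals and the first 15 bases of its intron in lower case, each written 5′ to 3′ and read from the GENCODE transcripts. The 5′ end of *Gm26584* itself, which lies in the first intron of *Slc7a2* on the minus strand (chr8:40865588-40865647), follows on the last line, because it belongs to the stretch that no annotated *Slc7a2* exon shares.
Slc7a2 strand: CAGGGCACTGCCCCAgtaagttgcgggtag
Gm26584 strand: ctacccgcaacttacTGGGGCAGTGCCCTG
Gm26584 first 60 bases: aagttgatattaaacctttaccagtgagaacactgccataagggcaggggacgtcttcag

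**Figure D1:**
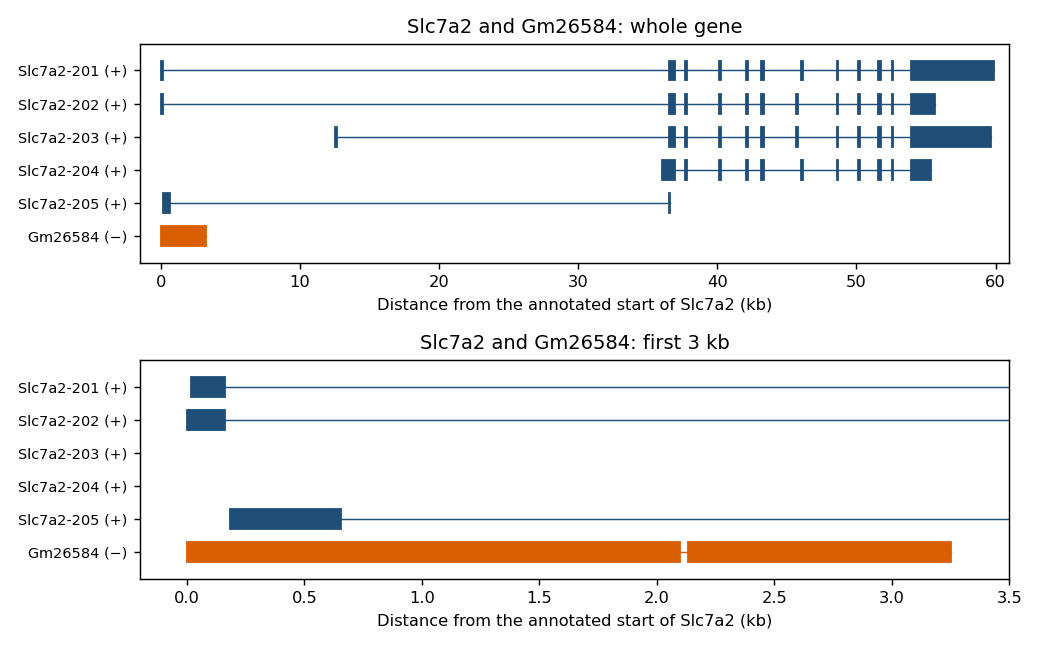
Exons (boxes) and introns (lines) of the 5 annotated *Slc7a2* transcripts on the plus strand and of *Gm26584* on the minus strand, against the distance in kb from the annotated start of *Slc7a2*, for the whole gene (top) and its first 3 kb (bottom). *Gm26584* covers the first exons of the transcripts 201, 202 and 205 and part of the long first intron that follows them.

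*Nos2* lies on chromosome 11 (78920787 to 78960254, plus strand, 4412 exonic bases) and *Acod1* on chromosome 14 (103046977 to 103056573, plus strand, 2623 exonic bases). No gene is annotated opposite to the exons of either. The promoter table from RefSeq (GRCm38.p6) held an entry for 1 of the 4 genes, *Acod1*. The 250 bases before its RefSeq start at 103047012 are shown, as no promoter of the other genes was at hand. RefSeq places this start 35 bases downstream of the GENCODE start. Capitals mark matches, on either strand, to 5 short patterns that were picked after this sequence had been read: GGAANTTCC for Rel proteins, GGGNNNNNCC for NF-κB, AANNGAAA for interferon regulatory factors, TTCNNNGAA for the interferon-γ activated site, and TATAAA.
Acod1 promoter (chr14:103046762-103047011, plus strand): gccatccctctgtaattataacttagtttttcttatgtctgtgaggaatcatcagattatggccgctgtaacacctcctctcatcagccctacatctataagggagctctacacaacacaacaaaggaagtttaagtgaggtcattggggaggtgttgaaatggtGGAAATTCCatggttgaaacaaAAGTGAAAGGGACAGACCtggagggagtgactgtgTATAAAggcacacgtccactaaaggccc

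The Rel pattern matched once, from 85 to 77 bases before the start, and 0.811% of 32817 promoters in the table hold it within the same length. The interferon regulatory factor pattern matched from 63 to 56 bases before the start (held by 21.3% of promoters) and was followed directly by the NF-κB pattern from 55 to 46 bases (45.8%). TATAAA stood 28 to 23 bases before the start (12.4%). The interferon-γ activated site pattern, which 7.01% of promoters hold, had 0 matches in this window. These matches describe letters and do not show that a factor bound there.

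The libraries held 939584 to 1158095 counts each (median 1078303.5), so single low rows rest on few reads, and 30671 of the 48440 rows had no count in any library. Between replicates of 1 group, chi-square divided by its degrees of freedom was 2.432 to 6.604, above counting noise. The libraries numbered 2 and 3 of M0 vehicle, and the library numbered 3 of M0 VLX-1005, stood apart from other M0 libraries in an earlier look at these data (M0 vehicle 3 and M0 VLX-1005 3 correlated at 0.4596 in their deviations from the group means), and results on M0 cells were recomputed without these 3. The RNA-seq kit kept the strand, but no source used here gives the strand option with which reads were counted. Rows whose exons overlap an exon of a gene on the other strand were 17.5% of all rows and held 96.3 to 97.2% of the counts of each library. For the *Slc7a2* locus this means that the strand on which a count arose cannot be told from the table, and reads on the other strand of *Nos2* and *Acod1* would fall in no row. Over all 16 libraries *Slc7a2* had 513 counts against 37301 for *Gm26584*, and *Irf1* had 130 against 34143 for its opposite row *Gm17334*. *Csf1r* went the other way, with 3595 against 2484 for its opposite row *Hmgxb3*. Whether reads were counted on the strand opposite to their gene was not tested. The levels given below are those of rows as counted, which need not be those of the genes that name them.

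Of 10 macrophage markers, 7 were tested and none was without a count. Their summed counts were 1069 to 1260 per library in M0 vehicle and 244 to 336 in M1 vehicle cells, and *Cd163*, a scavenger receptor of resting macrophages, went from 2958 counts over the M0 vehicle group to 13 over the M1 vehicle group. Under vehicle 3 of the 7 were called higher in M1-like cells (*Adgre1*, *Cd14* and *Itgam*, with log2 fold changes of 1.61, 3.01 and 1.01), 2 lower (*Cd163* and *Lyz2*, −7.24 and −2.50), and 2 did not pass, among them *Csf1r*, the M-CSF receptor (0.09, SE 0.09, adjusted p = 0.392, edgeR's quasi-likelihood test). Of all tested rows, 31.7% were called higher and 34.8% lower. *Cd14* and *Itgam* passed the filter only through M1-like libraries, and *Cd163* and *Cd68* only through M0 libraries, so their direction was in part a condition of being tested. Under VLX-1005, 2 of the 7 were higher and 3 lower, with *Itgam* not passing (0.59) and *Cd68* lower (−2.98, adjusted p = 0.000244, edgeR). The rows of markers of neutrophils, lymphocytes, and mast cells and basophils summed to at most 4 counts in any library. *Gm11505*, opposite to the neutrophil marker *Mpo*, had 22 and 13 counts over M0 vehicle and M0 VLX-1005 and 0 over both M1-like groups. None of the other markers of these cells had an opposite row. Reads on their other strand would not be seen, so the low sums do not show that such cells were absent. The list of 7 dendritic cell markers moved with polarization, from 9 to 13 counts per library in M0 vehicle to 161 to 233 in M1 vehicle cells, and from 5 to 9 to 144 to 208 under VLX-1005. That rise lay in *Xcr1*, a chemokine receptor (15 and 728 counts over the vehicle groups), whereas *Clec9a* went from 24 to 5 counts over the vehicle groups and from 19 to 0 under VLX-1005, *Itgax* had at most 6 counts in any group, and *Flt3*, *Zbtb46*, *Cd209a* and *Siglech* were at 0 in all libraries. The part of these markers in the results that follow was not tested, and in bulk RNA fewer cells of a type and less RNA per cell cannot be told apart.

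The *Slc7a2* row was nearly empty in M0 cells and rose in every M1-like library. Replicates 1 to 4 had 0, 1, 1 and 0 counts in M0 vehicle, and 3, 0, 0 and 0 in M0 VLX-1005. The same row had 66, 72, 70 and 71 counts in M1 vehicle, and 77, 47, 48 and 57 in M1 VLX-1005. The lowest M1-like library was thus well above the highest M0 library. As CPM (counts relative to library size, scaled by TMM factors), the levels were 0.389 ± 0.45 (SD, n = 4) in M0 vehicle, 0.562 ± 1.12 in M0 VLX-1005, 81.3 ± 5.49 in M1 vehicle and 66.6 ± 12.4 in M1 VLX-1005. Under vehicle the ratio of the summed, depth-scaled counts was 204 (95% exact interval of the counting error 56.1 to 1697), and the fitted log2 fold change was 7.31 (SE 0.46, adjusted p = 3.16e-12, edgeR). Under VLX-1005 the ratio was 115 (39 to 564) and the log2 fold change 6.58 (SE 0.44, adjusted p = 1.1e-11). Because the M0 denominators are 2 and 3 counts over 4 libraries, these folds are known only within the wide exact intervals. The SEs were derived from the test statistic and are too small here. Under vehicle the SE gives a fold of 81.7 to 307, narrower than counting error alone.

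*Gm26584*, the row opposite to *Slc7a2*, was present in M0 cells and rose to one of the most abundant rows in M1-like cells. Its counts for replicates 1 to 4 were 38, 39, 42 and 46 in M0 vehicle and 56, 47, 54 and 43 in M0 VLX-1005. They were 4084, 4427, 4904 and 5319 in M1 vehicle and 5147, 3666, 4340 and 5049 in M1 VLX-1005. No M1-like library came near the M0 range, and this single row took 0.39 to 0.494% of all counts of each M1-like library. The CPM levels were 32.7 ± 2.79 in M0 vehicle, 38.7 ± 3.44 in M0 VLX-1005, 5430 ± 242 in M1 vehicle and 5309 ± 555 in M1 VLX-1005 (SD, n = 4 each). The log2 fold change was 7.37 under vehicle (SE 0.10, adjusted p = 4.67e-24) and 7.10 under VLX-1005 (SE 0.10, adjusted p = 6.48e-24), with count ratios of 166 (143 to 195) and 138 (120 to 159). With 165 and 200 counts in the M0 groups, these folds were far better determined than those of *Slc7a2*.

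The *Nos2* row was empty in M0 cells and held low counts in all 8 M1-like libraries. All 8 M0 libraries had 0 counts, which allows up to 3 counts over each group of 4. M1 vehicle had 12, 8, 7 and 7 counts and M1 VLX-1005 had 15, 15, 8 and 14, so both M1-like groups lay apart from M0. The CPM levels were 10 ± 3.48 and 15.2 ± 3.96 (SD, n = 4 each). Against the floor of 3 counts per group, *Nos2* was at least 16.6-fold higher in M1 than in M0 cells under vehicle (adjusted p = 4.6e-06, edgeR) and at least 26.2-fold higher under VLX-1005 (adjusted p = 5.97e-07). A fitted fold change is not given, because it depends on the prior count when a group is at 0.

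*Acod1* had at most 1 count in any M0 library and at least 35 in every M1-like library. The M0 vehicle libraries had 0, 1, 0 and 0 counts and the M0 VLX-1005 libraries 1, 0, 0 and 0. M1 vehicle had 46, 44, 52 and 44 counts and M1 VLX-1005 had 41, 35, 50 and 49, with no overlap with M0. The CPM levels were 0.199 ± 0.399 and 0.187 ± 0.374 in M0 vehicle and M0 VLX-1005, and 54.2 ± 5 and 51.3 ± 8.12 in M1 vehicle and M1 VLX-1005 (SD, n = 4 each). The ratio of summed counts was 273 under vehicle (95% interval 48.3 to 10824) and 265 under VLX-1005 (46.9 to 10509), with adjusted p = 2.83e-12 and 3.49e-12 and fitted log2 fold changes of 7.43 (SE 0.46) and 7.37 (SE 0.47). The single M0 count in each group sets the width of these intervals, and the SEs, derived from the test statistic, are too small to show it.

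**Figure D2:**
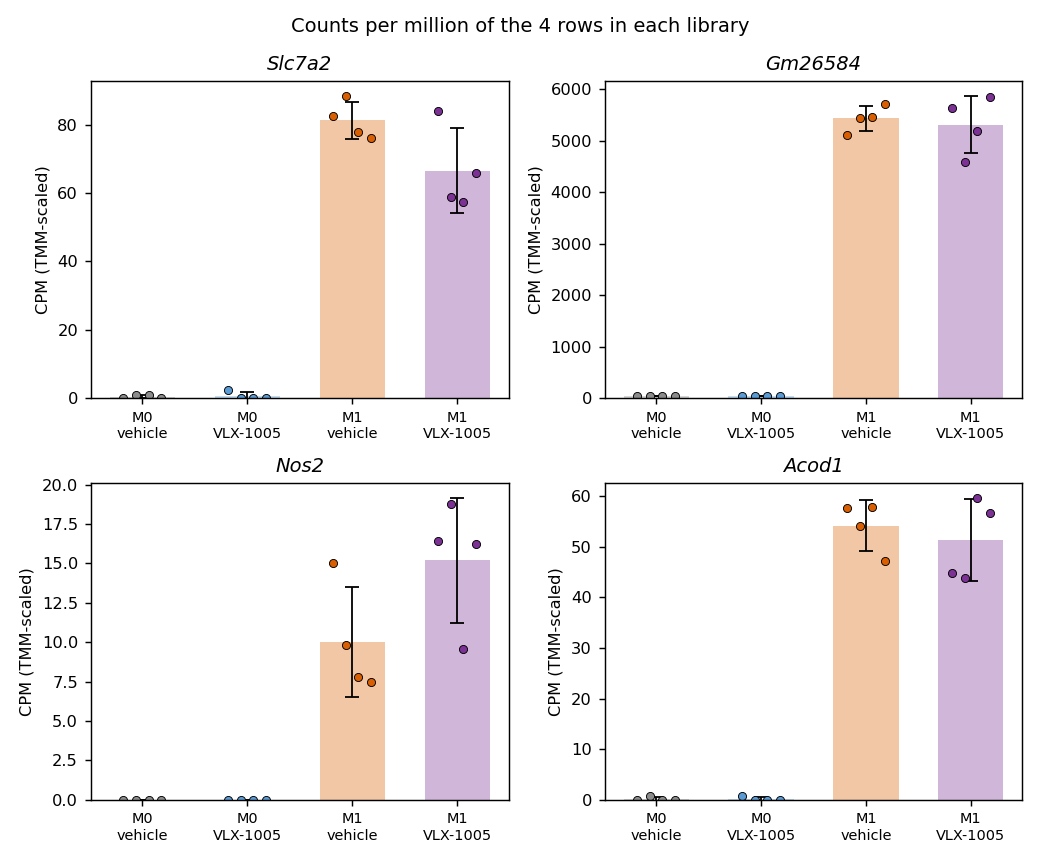
CPM of *Slc7a2*, *Gm26584*, *Nos2* and *Acod1* (TMM-scaled, linear axes that differ between panels) in the 4 groups. Points are libraries, bars group means and error bars SD (n = 4). All M1-like libraries lie above all M0 libraries in each panel, and the M1 vehicle and M1 VLX-1005 points overlap.

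All 4 rows were thus called higher in M1-like cells under vehicle and under VLX-1005, where 31.7% and 31.5% of the 3453 tested rows were called higher (and 34.8% and 33.8% lower). The groups did not overlap for any of the 4 rows in either transition, against 29.1% and 28.8% of tested rows that lay higher without overlap. For the 3 rows that reached the test only through M1-like cells these calls follow in part from the filter. Without the 3 M0 libraries that stood apart, each row was still called in both transitions. *Slc7a2* then had adjusted p = 4.38e-14 under vehicle and *Acod1* 1.05e-12, with the M0 vehicle group at 0 counts for both, while *Gm26584* had a log2 fold change of 7.30 and *Nos2* an adjusted p of 3.34e-05 (edgeR).

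The levels of the 4 rows were set against each other only per kb of exon. In M1 vehicle cells *Gm26584* had 1688 CPM per kb, *Acod1* 20.7, *Slc7a2* 8.9 and *Nos2* 2.28, and in M1 VLX-1005 cells these levels were 1651, 19.5, 7.29 and 3.45, in the same order. Among 3440 tested rows with an exon length, *Gm26584* ranked 84 by this level in M1 vehicle cells, *Acod1* 1505, *Slc7a2* 1983 and *Nos2* 2795. In M0 vehicle cells *Gm26584* ranked 1971 and the other rows 3382 or lower. These are ranks of rows as counted: since the strand option is not known, whether the counts of the *Gm26584* row came from *Gm26584* or from *Slc7a2*, and whether the *Nos2* row holds the reads of the *Nos2* transcript, cannot be told apart, and the order of the genes could differ from the order of the rows.

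Within the *Slc7a2* locus nearly all counts lay on the *Gm26584* row. Its share of the summed counts of both rows was 98.41, 98.40, 98.59 and 98.68% in the M1 vehicle libraries and 98.53, 98.73, 98.91 and 98.88% in the M1 VLX-1005 libraries. The 2 groups overlapped in this share, and the difference of 0.24 percentage points (98.52 ± 0.14% and 98.76 ± 0.18%, SD, n = 4 each) had p = 0.1143 in a two-sided exact permutation test over 70 labellings, for which the smallest possible p is 0.0286. In M0 cells the share ran from 97.50 to 100% under vehicle and from 94.92 to 100% under VLX-1005, on 38 to 59 counts per library. The lowest of these shares, in M0 VLX-1005 1, had a 95% Wilson interval of 86.08 to 98.26%, which covers counting error only. When both rows were summed into 1, the log2 fold change from M0 to M1 was 7.37 under vehicle and 7.09 under VLX-1005. Because the *Gm26584* row holds nearly all of these counts, the sum had to follow that row and is no separate check of the rise.

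The second question of the design was whether VLX-1005 changed these rows within a state. No row of the table passed at an adjusted p of 0.05 for VLX-1005 against vehicle in M1-like cells (percent called 0, with 128 of 3453 rows at an unadjusted p under 0.05 in edgeR and 0 rows called by DESeq2), and the 4 rows were among those that did not pass, each with adjusted p = 0.998. The M1 VLX-1005 and M1 vehicle groups overlapped for each of them, whereas 1.97% of tested rows did not overlap. For *Slc7a2*, 3 of the 4 M1 VLX-1005 libraries (57.3, 58.8 and 65.9 CPM) lay below the whole M1 vehicle range of 76.1 to 88.4 CPM, and the remaining 1 (84.2 CPM) lay inside it. Its log2 fold change was −0.28 (SE 0.24, 95% interval −0.78 to 0.22), or between 0.581 and 1.16 times the vehicle level. *Nos2* went the other way, with a log2 fold change of 0.61 (SE 0.39, 95% interval −0.21 to 1.43, unadjusted p = 0.134). Of its M1 VLX-1005 libraries, 3 (16.2, 16.4 and 18.8 CPM) lay above the M1 vehicle maximum of 15 CPM, and 1 at 9.56 CPM lay inside the vehicle range. At 34 and 52 counts in all, a ratio between 0.865 and 2.69 was not resolved at this depth.

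*Gm26584* and *Acod1* were closer between treatments in M1-like cells. *Gm26584* had a log2 fold change of −0.03 (SE 0.07), with an interval of −0.17 to 0.10, that is 0.89 to 1.07 times the vehicle level. *Acod1* had −0.08 (SE 0.23) with an interval of −0.56 to 0.40, or 0.68 to 1.32 times. Differences within these bounds could not be resolved with 4 libraries per group.

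In M0 cells only *Gm26584* had enough counts for this comparison. It measured 31, 31.1, 31.9 and 36.8 CPM under vehicle and 41.9, 35, 41.2 and 36.6 CPM under VLX-1005, so the groups overlapped through the highest vehicle library (2.46% of tested rows did not overlap in M0 cells). The log2 fold change was 0.24 (SE 0.13, 95% interval −0.02 to 0.51, unadjusted p = 0.107, adjusted p = 1), and 0.15 without the 3 M0 libraries that stood apart. The rise of *Gm26584* from M0 to M1 differed between VLX-1005 and vehicle by −0.28 on the log2 scale (SE 0.14, unadjusted p = 0.0713, adjusted p = 1 in the interaction test), and by −0.18 without those libraries. *Slc7a2*, *Nos2* and *Acod1* had at most 3 counts over each M0 group, so no fold and no interaction is given for them. The percent called was 0 for VLX-1005 against vehicle in M0 cells and for the interaction (103 and 148 rows at an unadjusted p under 0.05, and 0 called by DESeq2).

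**Figure D3:**
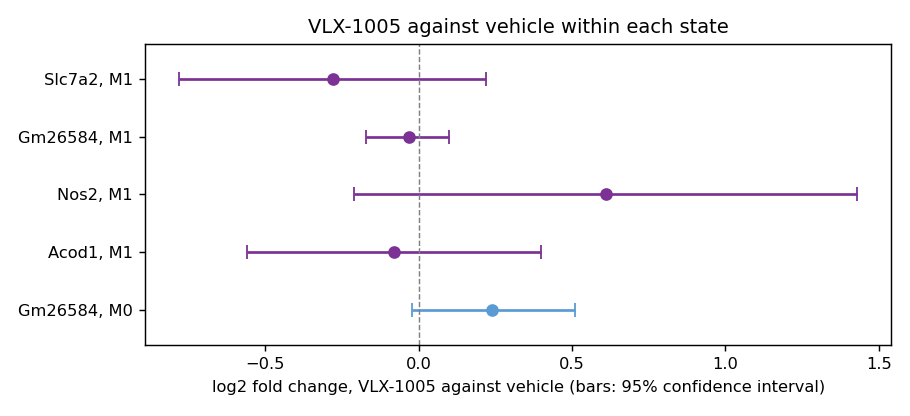
Log2 fold change of VLX-1005 against vehicle for the 4 rows in M1-like cells (purple) and for *Gm26584* in M0 cells (blue), with 95% confidence intervals from the edgeR fit (n = 4 libraries per group). All 5 intervals include 0, and the interval of *Nos2* is the widest, from −0.21 to 1.43.

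Few genes around the 4 rows were counted. Within 50 kb of *Slc7a2*, no row other than *Gm26584* had 10 counts, and *Pdgfrl*, which starts downstream of *Slc7a2*, had 1 count in all. *Lgals9*, which encodes the lectin galectin-9, lies 2720 bases from *Nos2* on the other strand and also rose. It had 0 to 5 counts per library in M0 vehicle and 11 to 20 in M1 vehicle cells (log2 fold change 3.32, SE 0.54, adjusted p = 1.27e-05). In M0 VLX-1005 it had 0 to 1. It thus passed the low-count filter only through M1-like libraries, and a rise was a condition of its being tested. Of all tested rows, 31.7% were called higher under vehicle.

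The pathway around these rows was sparsely covered, and a list member was tested only where at least 4 libraries reached 9.27 CPM before TMM scaling. Members that reached it only in M1-like libraries had to be higher there, and those that reached it only in M0 libraries lower, so the counts that follow describe the lists and support nothing beside the 31.7% of all tested rows called higher and the 34.8% called lower under vehicle. Of 6 arginine transport genes, 3 were tested, with 2 higher and 0 lower from M0 to M1 under vehicle, and both that were higher passed the filter only through M1-like cells. Besides *Slc7a2*, *Slc3a2*, the heavy chain that amino acid exchangers pair with, rose (1.10, SE 0.30, adjusted p = 0.00301, and 0.96, adjusted p = 0.0119, under VLX-1005). *Slc7a7*, the light chain that exports arginine, which reached the filter only in M0 libraries, had −0.90 (adjusted p = 0.108) under vehicle and fell under VLX-1005 (−1.26, SE 0.51, adjusted p = 0.0348). The interaction test did not call a difference between the 2 transitions for it (−0.36, SE 0.72, unadjusted p = 0.622). The row opposite to *Slc7a7*, *Oxa1l*, had 2039 counts over M0 vehicle and 559 over M1 vehicle and fell by 1.31 on the log2 scale (adjusted p = 1.66e-11). *Slc7a1*, which encodes the constitutive arginine transporter CAT1, had 9 counts in all 16 libraries.

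For nitric oxide synthesis, 2 of 14 genes were tested, and 1 of them, *Nos2*, was called in each transition. *Nos1*, the neuronal synthase, had 0 counts. *Nos3*, the endothelial synthase, had 19 and 16 counts in M0 vehicle and M0 VLX-1005 and 0 in both M1-like groups, too few for the test. *Ass1*, which rebuilds arginine from citrulline together with *Asl*, went from 0 and 1 counts over the M0 groups to 23 and 39 over M1 vehicle and M1 VLX-1005, and *Gch1*, the first enzyme of cofactor synthesis, had 0, 1, 4 and 2 counts. Neither was tested. The rows opposite to 2 further list genes were tested, with *Gm42413* (opposite to *Qdpr*) at −1.64 and *Prrg2* (opposite to *Nosip*) at 0.71 on the log2 scale, and both passed (adjusted p = 1.04e-13 and 7.01e-06).

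Arginase competes with nitric oxide synthase for arginine. *Arg1*, the cytosolic arginase, had 9, 6, 5 and 5 counts over the groups in the order M0 vehicle, M0 VLX-1005 and the corresponding M1-like groups, and was not tested. *Arg2*, the mitochondrial arginase and the 1 tested gene of 14 in this list, did not pass in either transition (−0.21, SE 0.22, adjusted p = 0.421, and 0.04, SE 0.22, adjusted p = 0.879), while *Vti1b* on its other strand rose (0.88, adjusted p = 2.67e-05). The *Slc7a2* and *Nos2* rows were called higher in M1-like cells, which followed in part from their passing the filter only there. *Arg2*, the only arginase row tested, was not called. These calls do not show a shift of arginine between the enzymes.

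Of 25 genes of itaconate synthesis and the citrate cycle, 2 were tested. *Acod1* rose and *Mdh1*, the cytosolic malate dehydrogenase, which reached the filter only in M0 libraries, fell (−1.29, SE 0.38, adjusted p = 0.00513, and −1.08, adjusted p = 0.0305, under VLX-1005). *Sdha*, a subunit of the succinate dehydrogenase that itaconate inhibits, had 22 counts over M0 vehicle and 23 over M1 vehicle, below the filter.

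Of 10 genes listed as targets of itaconate or as parts of the responses linked to it, 3 were tested and all 3 rose in both transitions. Each reached the filter only in M1-like libraries, so that a rise was a condition of being tested. *Keap1*, the sensor that itaconate alkylates, rose from 15 to 128 counts over the vehicle groups (3.60, SE 0.36, adjusted p = 1.13e-08), and its opposite row *Gm16754* from 2505 to 8864 counts (2.38, SE 0.07). *Hmox1*, heme oxygenase 1 and a target of the NRF2 pathway that KEAP1 restrains, rose by 1.86 (SE 0.45, adjusted p = 0.00104), and *Atf3*, a stress transcription factor, by 1.78 (SE 0.39, adjusted p = 0.000399). *Nfe2l2*, which encodes NRF2 itself, had 7 to 10 counts per group and was not tested.

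LPS acts through TLR4 and MYD88, and IFN-γ through its own receptor and JAK kinases, and both induce *Nos2* and *Acod1*. Of 16 genes of this signaling, 4 were tested and all 4 rose in both transitions. Only *Myd88* passed the filter in M0 as well as M1-like libraries, and the rise of the other 3 was a condition of their being tested. *Cd14*, the LPS coreceptor, rose by 3.01 (SE 0.46, adjusted p = 5.34e-06), *Cebpb*, a transcription factor, by 2.39 (SE 0.51, adjusted p = 0.000267), *Irf1*, an interferon regulatory factor needed for *Nos2* induction in mouse macrophages, by 2.02 (SE 0.48, adjusted p = 0.000921) and the adaptor *Myd88* went from 89 to 170 counts (adjusted p = 4.19e-05). As at the *Slc7a2* locus, the opposite rows held more counts: *Gm17334*, opposite to *Irf1*, had 1095 and 16392 counts over M0 and M1 vehicle (log2 fold change 4.45, SE 0.11) against 17 and 48 for *Irf1*. The rows opposite to *Myd88* (*Acaa1a*, 2.05), *Cebpb* (*Tmem189*, 2.41) and *Hif1a* (*Gm15283*, 2.80) also rose, while *Raver2*, opposite to *Jak1*, did not pass (−0.33, SE 0.28, adjusted p = 0.305, and 0.02, adjusted p = 0.958, under VLX-1005). None of the tested rows in the 6 lists was called for VLX-1005 against vehicle in either state.

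**Figure D4:**
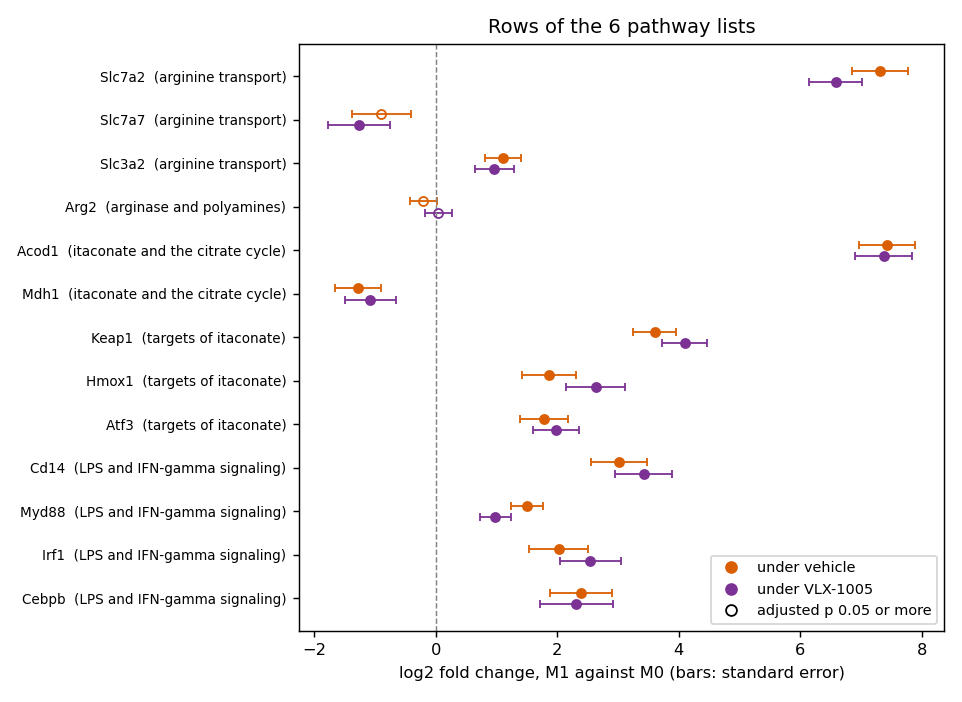
Log2 fold change from M0 to M1 of the genes of the 6 pathway lists that passed the filter and are reported here, under vehicle (orange) and under VLX-1005 (purple). Bars are standard errors derived from the test statistic, which are too small for *Slc7a2* and *Acod1* with their few M0 counts. Filled points have an adjusted p under 0.05, and *Nos2* is left out because its M0 groups were at 0. *Slc7a2* and *Acod1* lie farthest right, and *Arg2* has open points in both transitions.

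The rows most like each of the 4 were found by the smallest root mean square difference of centered log2 CPM (prior count 2) over the 16 libraries, among 3452 other rows. *Slc7a2* was closest to *Acod1* (0.31, r = 0.995), then to *Gbp5*, an interferon-induced guanylate-binding protein (0.35), and *Tlr1*, a Toll-like receptor (0.37). *Acod1* was closest to *Ptgs2*, which encodes cyclooxygenase-2 (0.22, r = 0.996), to *Gm17334* opposite to *Irf1* (0.23) and to *Gbp5* (0.23). *Gm26584* was closest to *Gm44148*, the row opposite to the interferon-induced protease gene *Usp18* (0.20, r = 0.998), to *Tnfrsf8*, which encodes CD30 (0.22), and to *Gm11978* opposite to *Ramp3* (0.25). *Nos2* was closest to *Mx1*, an interferon-induced antiviral GTPase (0.28, r = 0.985), to *1700071M16Rik* opposite to *Pla2g7* (0.31) and to *Gm19412* opposite to *Tapbp* and *Zbtb22* (0.31). All of these rows share the step between M0 and M1, and the prior count draws rows of low counts together: *1700071M16Rik* had a log2 fold change of 2.98 and stood at 779 CPM in M0 vehicle cells, where *Nos2* had no count.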

How the data were processed

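BMDM RNA was sequenced from poly(A) RNA with a strand-specific kit. Alignment by the authors used HISAT2 and the mm10 build, and HTSeq gave the counts. Trimmomatic, FastQC and DESeq2 appear in the submitters' processing notes. No source used here gives tool versions, the annotation release or the strand option. The deposited values are raw counts per gene row, 1 column per library, not pooled.

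Row IDs were matched without version to GENCODE mouse release 21 (48058 of 48440 rows matched, 382 did not). Opposite-strand rows share at least 1 exonic base. Rows were filtered with filterByExpr (minimum count 10, which is 9.27 CPM at the median library before TMM scaling, minimum total 15). They were tested with edgeR 4.0.16 (quasi-likelihood test, TMM factors 1.16 to 1.2 in M0 and 0.824 to 0.869 in M1-like libraries, 1 model of 4 groups over all 16 libraries, Benjamini-Hochberg adjustment over 3453 rows, threshold 0.05). The fitting code was tested on simulated data. Fold changes used a prior count of 0.125. Their SEs and 95% intervals were derived from the fold change and the F statistic of the test. They can understate the error where a group has few counts. Ratios of summed counts have 95% exact conditional binomial intervals, and the floor was 3 counts per group. DESeq2 1.42.0, limma-voom (limma 3.58.1) and other filters, scalings, priors, sample sets and left-out libraries were alternatives. R 4.3.3, Python 3.11.15, scipy 1.17.1 and matplotlib 3.10.9 were used. Named rows were the 4 rows, rows within 50 kb with at least 10 counts, up to 4 passing genes per pathway list and a fixed set of arginine and signaling genes, their most counted opposite rows, and the 3 most similar rows each. The rows, lists and tests were chosen with earlier results of these data known, and genes named outside this rule were chosen after their values were seen. Results for some genes fixed by this rule are not reported here.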

Additional observations from a re-analysis of the deposited data

Results flagged for a closer look

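*Gm26584* in the M0 vehicle libraries had 1 library apart from the others: 3 lay at 31 to 31.9 CPM and M0 vehicle 4 at 36.8 CPM, a gap of 0.832 of the range, just above Dixon's critical value for 4 samples, which chance passes in about 1 in 20 groups. The share of locus counts on the *Gm26584* row was 100% in 3 M0 VLX-1005 libraries and 94.92% in M0 VLX-1005 1, a gap of 1.000 of the range that rests on 3 counts of *Slc7a2*. Because a share cannot exceed 100%, any value below it beside 3 libraries at that limit gives this gap, and no error rate holds for it.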

How the results depend on the processing

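Over 14 results of the 4 rows and 383 recomputed values, direction and side of the threshold were the same in 382. The exception was *Gm26584* for VLX-1005 against vehicle in M1-like cells, at 0.03 without M1 VLX-1005 replicate 2 (leave-one-out range −0.08 to 0.03), uncalled throughout. In every alternative in which a row was tested, it was called from M0 to M1 in both treatments (a stricter filter, the restriction to rows without an opposite gene, the summing of the locus and, for *Nos2*, the fit of only the groups compared left some rows untested). *Slc7a2*, *Nos2* and *Acod1* passed the low-count filter only through M1-like cells, so with that filter these calls follow in part from it. In the main fit 31.7% of all tested rows were called higher under vehicle. With left-out libraries included, the fitted log2 fold change was 7.28 to 7.43 for *Gm26584* under vehicle but 5.19 to 9.36 for *Slc7a2* and 4.76 to 8.84 for *Acod1*, so their sizes depend on the prior count, the tool and the M0 libraries kept. Under VLX-1005, *Slc7a2* was at 9.13 without M0 VLX-1005 replicate 1, which held all its M0 counts.

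Rows called from M0 to M1 numbered 2295 under vehicle and 2254 under VLX-1005, and 1277 and 1262 when rows had to average 50 counts a library or 450 and 442 among rows without an annotated opposite-strand gene, where fewer rows were tested. In M0 cells 1 row was called for VLX-1005 without a low-count filter. With the replicate number as a block, 2315 and 2293 rows were called from M0 to M1, and no call of the 4 rows changed. Same-numbered libraries correlated from −0.0727 to 0.4596 in their deviations from the group means, over 0.1 for 2 of 24 pairs. Between vehicle and VLX-1005 in M1-like cells they stood at 0.0699, 0.0623, 0.0397 and 0.0909, above all differently numbered pairs (at most 0.0369). In M0 cells they stood at 0.078, 0.043, 0.4596 and 0.2723, with other pairs from −0.3482 to 0.2746. Whether the numbers pair samples is thus not settled, and the main tests of VLX-1005 against vehicle ignore any such pairing.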
